A study of Mus musculus with 10 samples.

Results

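The transcripts described here are the 942 probes whose name on the array begins with ENSMUS, that is, an Ensembl mouse transcript identifier. They are 0.963% of the 97836 probes with non-control spots, and all 942 were kept. They were chosen by name alone, and the rule used no measured value. The arrays are one-colour microarrays, on which RNA labelled with the dye Cy3 is hybridised to printed probes and each spot's brightness is read. Every array carried 2 spots of each of these probes.

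RNA of 10 samples labelled as liver was measured, each on an array of its own. The labels do not state that each sample is another mouse. The words mice and livers stand for these samples here, and the spread between them may be technical. The 5 control mice were wild-type C57BL/6J males on a regular diet. The 5 hyperlipidemic mice were labelled with the same strain, sex and age of 42 days, lacked apolipoprotein E (ApoE-/-, the protein through which lipoprotein remnants are cleared by the liver) and ate a high-fat diet with 2.5% cholesterol and 15% fat. Genotype and diet changed together, so their parts in a difference cannot be told apart. The labels give liver as the source but name genomic DNA as the molecule, and their extraction text describes a blood RNA kit with globin removal. None of 43 marker symbols of liver cell types or blood was named by a RefSeq probe of the array, so these markers could not be used to check the tissue. The probe of Hnf4aos, antisense to the hepatocyte transcription factor Hnf4a, was well above background on all 10 arrays. It is 1 probe picked from a list of long non-coding RNAs whose others are not given here, and it does not settle the tissue. Whole liver mixes cell types, and fewer cells of a type cannot be told apart from less RNA per cell.

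Ensembl annotates transcripts on the genome from aligned cDNA, proteins and other evidence, and it gives an identifier to each isoform of a gene, coding or not. Long non-coding RNAs, the class these probes were filed under, are transcribed and processed much like messenger RNA but are not translated into a known protein. Many are kept at low levels and are limited to a few cell types, and some act on the chromatin or the transcripts of neighbouring genes. None of the 942 identifiers matched a gene of the reference tables used here, so gene names, biotypes, positions and sequences are not given, and whether each transcript is non-coding could not be checked. The identifiers are printed as the arrays give them.

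Most of these transcripts were not well above background in liver. A probe was counted as well above background on an array when most of its unflagged spots carried the scanner software's mark for that. By this measure, 632 of 942 probes (67.1%) were well above background on none of the 10 arrays, against 51.95% of all probes. At the other end, 122 (12.95%, 95% Wilson interval 10.96 to 15.2%, which covers counting error only) were well above background on all 10 arrays, against 24.94% of all probes. Of the remaining probes, 64 were well above background on a single array, and for 56 of these that array was control replicate 4.

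Other name classes of the array stood on both sides of the Ensembl-named probes. The share on no array was 60.9% for NONCODE transcripts, 61.2% for curated RefSeq non-coding transcripts, 60.9% for RIKEN clones, 70.5% for predicted RefSeq non-coding transcripts and 71.0% for ultraconserved elements. The share on all 10 arrays was 18.1% for curated RefSeq transcripts, 14.6% for NONCODE, 12.2% for RIKEN clones, 9.96% for predicted RefSeq transcripts and 7.77% for ultraconserved elements. The catalogue probes of the manufacturer were different, with 35.2% on no array and 42.9% on all 10. These shares are descriptions and were not tested against each other.

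Detection varied more between arrays than between groups. Of the 942 probes, 23.4%, 16.9%, 19.5%, 31.1% and 18.2% were well above background in control replicates 1 to 5. In hyperlipidemic replicates 1 to 5 the share was 22.8%, 19.3%, 17.0%, 20.4% and 20.1%. Control replicate 4 was the highest array, control replicate 1 also lay just above all 5 hyperlipidemic ones, and the other 3 control arrays overlapped with them or lay below. The mean share was 21.8% ± 5.74 (SD, n = 5) in control livers and 19.9% ± 2.10 (SD, n = 5) in hyperlipidemic livers, and without control replicate 4 the control share was 19.5% ± 2.80 (SD, n = 4). That array was also the highest over all probes, at 45.2% against 30.2 to 36.6% on the other 9 arrays.

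**Figure D1:**
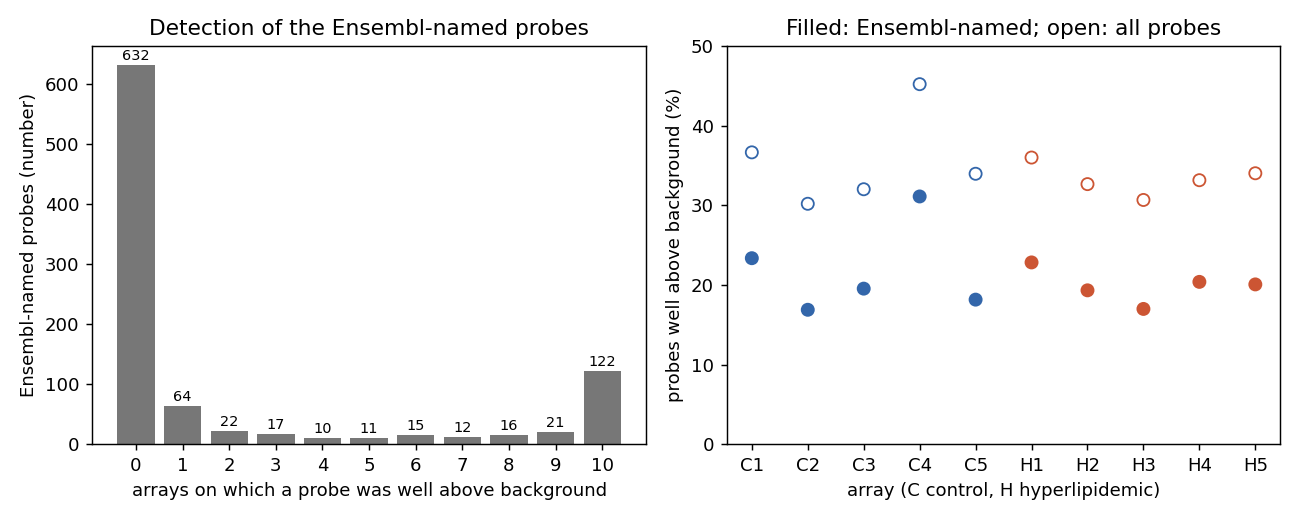
The left panel counts the 942 Ensembl-named probes by the number of arrays, from 0 to 10, on which they were well above background. The right panel gives the percent of probes well above background on each control (C1 to C5) and hyperlipidemic (H1 to H5) array, for Ensembl-named probes (filled) and for all probes (open). The 632 probes on no array and the 122 on all 10 are the tallest bars, and control replicate 4 is the highest array in both sets.

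No Ensembl-named transcript was well above background in every mouse of 1 group and in none of the other. Of the 310 probes well above background on at least 1 array, 151 were so on equal numbers of control and hyperlipidemic arrays, 114 on more control arrays and 45 on more hyperlipidemic arrays. The 56 probes seen in control replicate 4 alone are among the 114. The number of probes on 5 of 5 arrays of 1 group and 0 of 5 of the other was 0 in both directions. The same counts were not made over all probes, so none of them is a result particular to these probes. Over all probes the mean share well above background was 35.6% in control and 33.3% in hyperlipidemic livers. Without control replicate 4 it was 33.2% in control livers. The widest splits in detection were in ENSMUST00000181125 and ENSMUST00000144539, each on 5 control arrays and 1 hyperlipidemic array. Their levels are given with the group differences.

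Levels are the log2 processed signal of a probe minus the 75th percentile of the same array, so 0 marks a spot brighter than 75 percent of the spots there. A probe entered the group comparison when all 10 arrays had an unflagged spot of it and when 4 or 5 arrays of a group showed it well above background. This held for 177 of the 942 (18.8%, against 30.9% of all probes, where RefSeq probes of 1 gene were joined). The other 765 were not tested, among them 133 that were well above background on 1 array or more. Of the 177, 122 were the probes seen on all 10 arrays. Their mean levels over the 10 arrays ran from -1.41 to 7.79, with a median of 0.12, and 99 lay above 0.

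A few Ensembl-named probes were bright in every liver. Of the 177 tested, the brightest was ENSMUST00000189178, at 7.68, 7.82, 7.79, 7.52 and 8.01 in control replicates 1 to 5 and 7.72, 7.70, 7.96, 7.91 and 7.75 in hyperlipidemic replicates 1 to 5. ENSMUST00000186055 followed, at 6.60, 6.51, 6.59, 6.15 and 6.45 in control and 6.23, 6.68, 7.31, 7.14 and 6.39 in hyperlipidemic livers. The first kept to a range under 0.5 across all mice, and the second was highest in hyperlipidemic replicates 3 and 4. ENSMUST00000194822 stood between 5.77 and 6.48 in control and between 6.15 and 6.39 in hyperlipidemic livers. ENSMUST00000193994 stood between 5.32 and 6.10 in control and between 5.55 and 6.09 in hyperlipidemic livers. The groups of all of these probes overlapped. Brightness depends on the probe as well as on the transcript, so this order is one of probes and not of RNA amounts.

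Of the 6 brightest tested probes, the last 2 differed most in how steady they were. ENSMUST00000132370 stood at 5.64, 5.59, 5.66, 5.70 and 5.71 in control and 5.85, 5.42, 5.29, 5.41 and 5.46 in hyperlipidemic livers. ENSMUST00000161005 stood at 5.27, 6.07, 5.66, 5.18 and 5.91 in control and 5.29, 5.51, 4.91, 4.68 and 5.79 in hyperlipidemic livers. The control values of ENSMUST00000132370 lay within 0.2 of each other and inside the hyperlipidemic range. ENSMUST00000161005 varied in both groups and was lowest in hyperlipidemic replicates 3 and 4, the arrays on which ENSMUST00000186055 was highest.

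For most tested transcripts the spread between mice exceeded that between the 2 spots of an array. Each sample had 1 array, so the spread between mice also holds differences of labelling and slide, which the 2 spots of an array share. The pooled within-group SD between mice had a median of 0.42 (quartiles 0.31 and 0.56, range 0.14 to 2.10), against a median of 0.385 over all features tested. The SD between spots of 1 array had a median of 0.155 and a range of 0.0295 to 0.677. The SD between mice was the larger in 165 of 177 transcripts, by a median ratio of 2.84. The SD between mice is of levels averaged over 2 spots, while the SD between spots is that of a single spot. The spot SD therefore overstates the spot noise left in a level. The steadiest transcript was ENSMUST00000186234, at 1.33, 1.64, 1.52, 1.52 and 1.72 in control and 1.66, 1.38, 1.50, 1.58 and 1.72 in hyperlipidemic livers, with a within-group SD of 0.14. ENSMUST00000132370 and ENSMUST00000189178 followed, each with an SD of 0.15. ENSMUST00000186570 was as steady at a low level, between -0.48 and -0.14 in control and between -0.48 and -0.12 in hyperlipidemic livers, with an SD of 0.16. The same transcripts had spot SDs of 0.0590 (ENSMUST00000132370) to 0.193 (ENSMUST00000186570), and that of ENSMUST00000186570 was above its SD between mice.

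**Figure D2:**
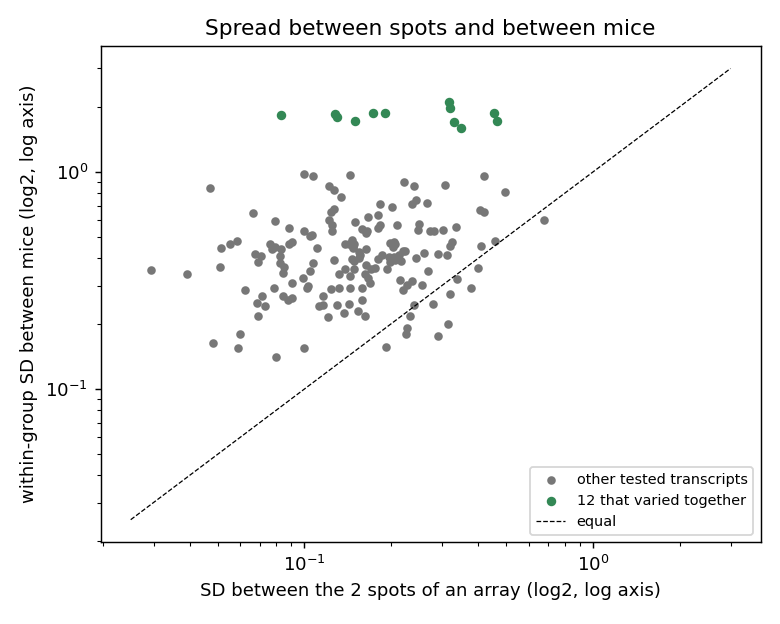
Each point is 1 of the 177 tested transcripts, with the SD between the 2 spots of an array on the x axis and the pooled within-group SD between mice on the y axis (both log2 units, on log axes); the dashed line marks equal values. Of the points, 165 lie above the line, and the 12 transcripts that varied together (green) lie between 1.60 and 2.10 on the y axis, apart from the rest.

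The 12 most variable transcripts moved as a block from array to array. These were the 12 tested members with a within-group SD above 1, between 1.60 and 2.10, while the largest SD among the others was 0.98. Grouping the 177 by their correlation over the 10 arrays (average linkage, joined at r of 0.85 and above, chosen after the values were seen) put exactly these 12 into 1 set. The lowest correlation between any pair of them was 0.94 over 10 arrays, and 0.90 without control replicate 4. As these arrays share a scaling and differ in labelling, the correlations are descriptions. They are ENSMUST00000181199, ENSMUST00000185603, ENSMUST00000186371, ENSMUST00000187833, ENSMUST00000189579, ENSMUST00000189721, ENSMUST00000190102, ENSMUST00000190408, ENSMUST00000190543, ENSMUST00000190777, ENSMUST00000190867 and ENSMUST00000192472. Whether any of them share a gene or a sequence could not be looked up here.

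ENSMUST00000190867, the most variable of all, stood at 2.52, -1.39, 1.59, 3.89 and -2.82 in control replicates 1 to 5 and at 2.24, 0.45, 0.15, 0.50 and -0.56 in hyperlipidemic replicates 1 to 5. ENSMUST00000190543 stood at 1.73, -2.04, 0.79, 3.51 and -2.64 in control and at 1.42, -0.50, -1.37, -0.09 and -0.92 in hyperlipidemic livers. In both transcripts control replicate 4 was the highest array and control replicate 5 the lowest, so the control range enclosed the hyperlipidemic one. ENSMUST00000192472 stood at 2.84, -0.32, 1.98, 4.26 and -2.01 in control and at 2.48, 0.79, 0.37, 0.63 and 0.39 in hyperlipidemic livers. ENSMUST00000185603 stood at 2.87, -0.34, 2.03, 4.60 and -1.58 in control and at 2.41, 0.80, 0.15, 0.59 and 0.14 in hyperlipidemic livers. Hyperlipidemic replicate 1 stood above the other 4 hyperlipidemic arrays in all of these. The SDs between spots of the same 4 transcripts were 0.173 to 0.319.

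Over the whole set, the median departure from each transcript's mean was 1.70, -1.56, 0.82, 3.17 and -2.69 in control replicates 1 to 5. In hyperlipidemic replicates 1 to 5 it was 1.28, -0.30, -0.83, -0.57 and -1.07. Thus control arrays held both extremes. The group differences of the 12, hyperlipidemic minus control, ran from -0.91 to -0.20, the smallest adjusted p in limma's test was 0.835, and 0 of 12 had an unadjusted p under 0.05. Among the 4 named above, the difference was -0.69 to -0.20 with all arrays, 0.08 to 0.58 without control replicate 4 and 2.49 to 3.77 with slide as a block, where control replicate 5 is the sole control array beside hyperlipidemic ones. On control replicate 5 all but ENSMUST00000185603, ENSMUST00000189721, ENSMUST00000190408 and ENSMUST00000190777 stood below the lowest signal counted as well above background there (-1.61). On control replicate 2, ENSMUST00000181199, ENSMUST00000186371, ENSMUST00000190102, ENSMUST00000190543 and ENSMUST00000190867 also stood below that array's lowest such signal (-1.25). The large SDs of these transcripts thus rest in part on levels below the limit of detection. Of the 12, 2 (ENSMUST00000190408 and ENSMUST00000190777) were well above background on all 10 arrays. The arrays high in this set include those with most probes detected, control replicates 4 and 1 and hyperlipidemic replicate 1, whose part in the result was not tested. Another 371 of the 30244 features tested had a correlation above 0.9 with the mean of the set.

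**Figure D3:**
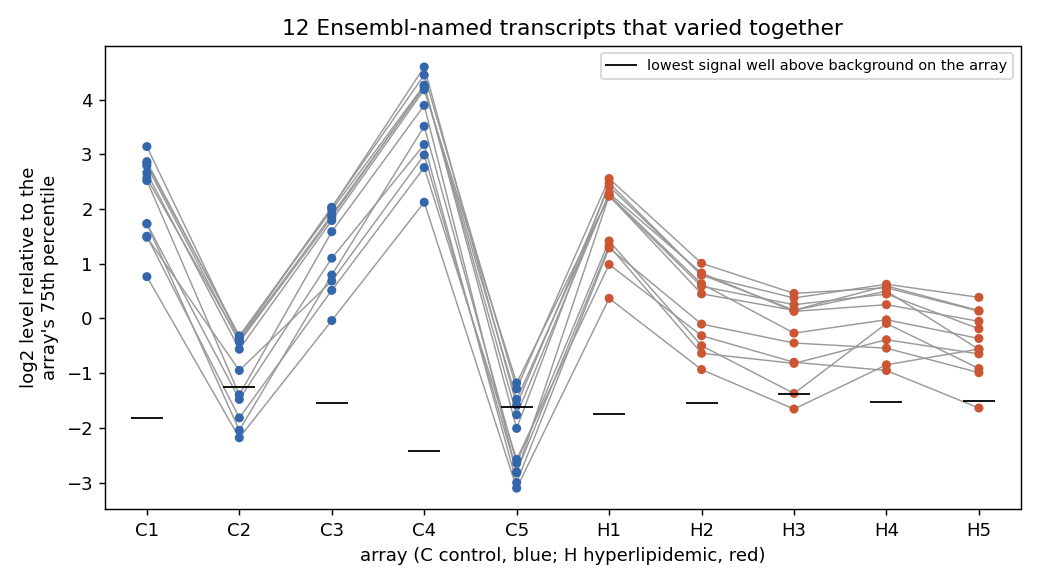
Lines join the levels of each of the 12 most variable Ensembl-named transcripts across the control (blue) and hyperlipidemic (red) arrays, in log2 units relative to the array's 75th percentile; short black lines mark the lowest signal well above background on each array. All 12 lines peak at control replicate 4 and are lowest at control replicate 5, and the lines join separate mice that have no order.

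The first principal component of the levels of the 177 transcripts followed the same arrays. It held 58.1% of the variance, against 35.9% over all features tested, and a component of this kind is weighted to the most variable transcripts. The set above is part of the 177 and holds the most variable of them. The component thus restates that set in part and is not separate evidence of an axis shared by all 177. Its scores were 0.66 in control replicate 4, 0.32 in control replicate 1 and 0.16 in control replicate 3, and -0.28 and -0.47 in control replicates 2 and 5. The hyperlipidemic arrays scored from -0.20 to 0.22, inside the control range, so this axis did not separate the groups. The second component held 20.3% and was highest in hyperlipidemic replicates 4 and 3, at 0.70 and 0.46. In all, 79 of the 177 transcripts fell into 18 correlated sets of 3 or more.

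In some of the smaller sets, hyperlipidemic replicates 3 and 4 had the lowest or the highest median departures. In a set of 7 with ENSMUST00000161005, the median departure was -0.52 and -0.96 in hyperlipidemic replicates 3 and 4, against -0.23 to 0.75 on the other 8 arrays. In a set of 6 with ENSMUST00000130564, it was 0.54 and 0.85 on the same arrays, against -0.51 to 0.10 elsewhere. The group differences were -0.64 to -0.29 in the first set and 0.36 to 0.66 in the second. At an unadjusted p under 0.05 stood 2 of the 7 and 3 of the 6, and the smallest adjusted p in limma's test was 0.827 in both sets. A set of 5 with ENSMUST00000176045 was higher in control, with median departures of 0.09 to 0.73 in control and -0.98 to 0.17 in hyperlipidemic livers, where replicate 5 reached 0.17. Its differences were -0.92 to -0.44, and 4 of the 5 had an unadjusted p under 0.05. The sets were built from the same arrays, so members of a set are not separate evidence of a difference.

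The comparison of the groups asks whether these transcripts differ between livers of hyperlipidemic and control mice. No Ensembl-named transcript passed. In limma's test over 30244 features with Benjamini-Hochberg adjustment, 0 of 177 were higher and 0 lower at an adjusted p under 0.05. Over all features tested, 0.0694% were called, 0.043% higher and 0.0265% lower, so a list of this size is near the background at 0. At an unadjusted p under 0.05 there were 18 (10.2%), 7 higher and 11 lower in hyperlipidemic livers, against a background of 5.81% (2.98% higher and 2.83% lower). The share in the other name classes ran from 4.26% for ultraconserved elements to 7.40% for NONCODE transcripts. These counts depended on the filter. Of the 122 transcripts on all 10 arrays, 5 were higher and 3 lower, against 803 and 444 of 24389 features. With no filter, 16 were higher and 19 lower of 940, against 1885 and 1995 of 95757. Quantile normalization, another scaling, gave 6 higher and 11 lower of the 177, against 1176 and 992 of 30244. As shown above, several of the 18 belong to sets that vary together.

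The differences of the 177, in log2 units as hyperlipidemic minus control, ran from -0.92 to 1.95 with a median of -0.04, against 0.03 over all features tested. They were below 0 in 94 transcripts and above 0 in 83. A difference of at least 1, that is 2-fold, was reached by 1 transcript (0.565%, against 0.873% of all features), and 135 lay within 0.5 of 0. The 95% interval, not adjusted for the number of tests, reached a median of 0.55 to either side of the difference. Differences above this did not have to pass after adjustment. Those of 0.90 in ENSMUST00000182342 and -0.92 in ENSMUST00000176045 had adjusted p of 0.677 and 0.593 in limma's test. The groups did not overlap in 1 transcript (0.565%), which was lower, against 0.972% of all features in either direction (0.612% higher and 0.36% lower).

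**Figure D4:**
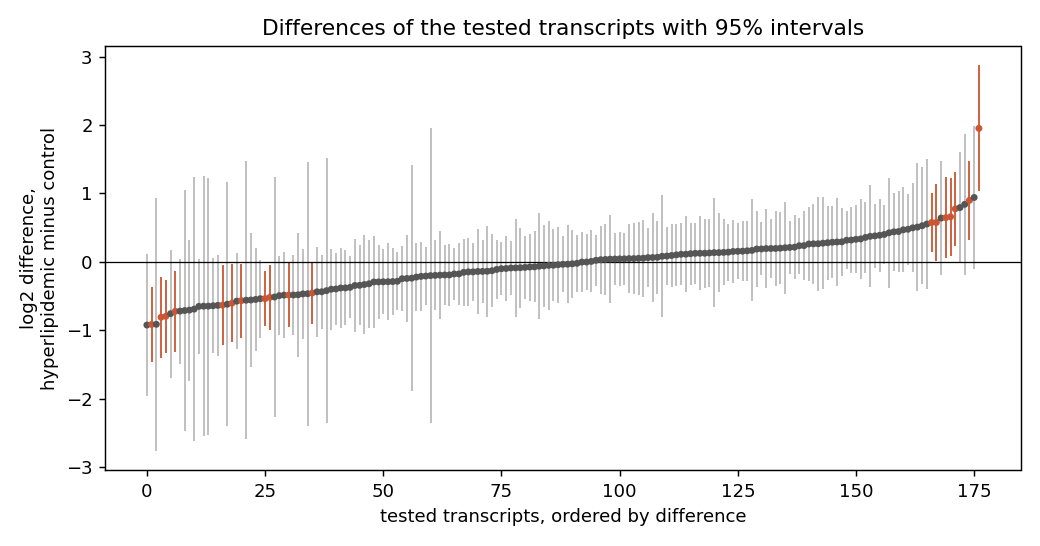
Points are the fitted log2 differences (hyperlipidemic minus control, y axis) of the 177 tested transcripts in order of size, and lines are their 95% intervals, which are not adjusted for the number of tests. The 18 with an unadjusted p under 0.05 are red; the point farthest from 0, at 1.95, is ENSMUST00000160950.

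The largest difference was that of ENSMUST00000160950. It stood at 3.86, 4.25, 3.17, 2.56 and 5.37 in control replicates 1 to 5 and at 6.16, 6.38, 5.79, 5.01 and 5.63 in hyperlipidemic replicates 1 to 5. Of the control arrays, replicate 5 reached into the hyperlipidemic range, and the other 4 lay below it. The control mean was 3.84 ± 1.07 and the hyperlipidemic mean 5.79 ± 0.53 (SD, n = 5 each), with an SD between spots of 0.047. The difference of 1.95 (SE 0.43, 95% interval 1.03 to 2.88) had an unadjusted p of 4.52e-04 and an adjusted p of 0.244 in limma's test, and so did not pass. It is described with the 4 transcripts next in unadjusted p, all chosen after their values were seen.

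The same difference moved with the arrays and blocks used. Slide 1 held control replicates 1 to 4, slide 2 held control replicate 5 and hyperlipidemic replicates 1 to 3, and slide 3 held the last pair of hyperlipidemic arrays. The difference was 0.74 with slide as a block, and the same on slide 2 alone. Both rest on control replicate 5, the highest control array, as the sole control, so slide and that array cannot be told apart here. Without control replicate 5 it was 2.33, with an adjusted p of 0.0233 in limma's test, the only array whose removal took it past the threshold. The arrays were also split into 3 sets at the 2 widest gaps in the signal of 1 probe for spike-in RNA added at labelling. The labels name no such sets. One held control replicates 1 to 3 and another hyperlipidemic replicates 3 to 5. The set of both groups held control replicates 4 and 5 with hyperlipidemic replicates 1 and 2. Within the set of both groups the difference was 2.31, with an adjusted p of 0.0112 in limma's test. There the transcript's own SD of 1.41 was replaced in the fit by 0.519, taken from all features, with 2 residual degrees of freedom, and the pair of control values lay at 2.56 and 5.37. Over all alternatives the difference ran from 0.74 to 2.33 and the adjusted p from 0.0112 to 0.9999.

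ENSMUST00000187594 was the other bright transcript among the 5. It stood at 3.13, 3.45, 3.40, 2.72 and 3.98 in control and 4.38, 4.52, 3.97, 4.04 and 3.64 in hyperlipidemic livers. Again control replicate 5 lay within the hyperlipidemic range and control replicate 4 was lowest. The means were 3.34 ± 0.46 and 4.11 ± 0.35 (SD, n = 5 per group), and the difference of 0.78 (SE 0.25) had an adjusted p of 0.750 in limma's test. It was 0.31 with slide as a block, where control replicate 5 again decides the control level, and 1.099 with spike-in sets as a block.

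ENSMUST00000176045 and ENSMUST00000185876, of the set of 5 above, were lower in most hyperlipidemic livers. ENSMUST00000176045 stood at -0.13, -0.62, -0.29, 0.22 and -0.51 in control and -1.08, -1.49, -1.70, -1.24 and -0.40 in hyperlipidemic livers. ENSMUST00000185876 stood at 0.14, -0.46, -0.15, 0.22 and -0.32 in control and -0.64, -1.28, -1.54, -0.74 and -0.35 in hyperlipidemic livers. In both, hyperlipidemic replicate 5 lay within the control range and the other 4 below it. The difference was -0.92 (SE 0.26, adjusted p = 0.593 in limma's test) for the first and -0.80 (SE 0.25, adjusted p = 0.729) for the second. With normexp, another correction for background, they were -0.39 and -0.31. Both were well above background on 5 of 5 control arrays, the first on 3 and the second on 4 of the hyperlipidemic ones. The first thus entered the comparison through its control arrays alone, the group where it is higher.

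ENSMUST00000182342 was dim, at -1.40, -1.80, -1.56, -1.08 and -1.49 in control and -1.08, -1.30, -0.39, 0.05 and -0.12 in hyperlipidemic livers. The values of hyperlipidemic replicates 3 to 5 lay above all others, replicate 1 stood level with the highest control array, and replicate 2 lay within the control range. Its difference of 0.90 (SE 0.27) had an adjusted p of 0.677 in limma's test. The transcript was well above background on 2 control and 4 hyperlipidemic arrays, and so entered the comparison through the hyperlipidemic group alone. Hyperlipidemic replicates 3 to 5 are also the third spike-in set, and with these sets as a block the difference was 0.09. It was 0.56 with slide as a block and 0.32 with normexp.

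ENSMUST00000181125 was the only tested transcript whose groups did not overlap. It stood at -0.80, -0.41, -0.80, -0.64 and -1.10 in control and -1.39, -1.31, -1.12, -1.40 and -1.22 in hyperlipidemic livers. Control replicate 5 and hyperlipidemic replicate 3 lay nearest to each other, at -1.10 and -1.12. The means were -0.75 ± 0.25 and -1.29 ± 0.12 (SD, n = 5 per group), and the difference of -0.54 (SE 0.19) had an adjusted p of 0.756 in limma's test. The exact two-sided permutation test of this transcript alone gave p = 0.00794, the smallest that 5 against 5 mice can give. It was picked for this separation, which fixes that p in advance, so the p is not evidence of a difference. The transcript also entered the comparison through its control arrays alone, the group where it is higher. The difference was -0.17 with slide as a block and -0.25 with normexp. It was well above background on 5 control arrays and 1 hyperlipidemic array, and the arrays' lowest signals counted as such ran from -2.42 (control replicate 4) to -1.25 (control replicate 2), so its levels were near the limit of detection.

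ENSMUST00000144539 had the same split in detection, on 5 control arrays and 1 hyperlipidemic array. This transcript, too, entered the comparison through its control arrays alone. It stood at -1.09, -0.98, -1.19, -0.70 and -1.10 in control and -1.24, -1.90, -1.91, -1.36 and -1.08 in hyperlipidemic livers. Hyperlipidemic replicate 5 lay within the control range, while replicates 2 and 3 were lowest. The difference was -0.49 (SE 0.22), with an adjusted p of 0.827 in limma's test, and it was -0.057 with normexp.

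**Figure D5:**
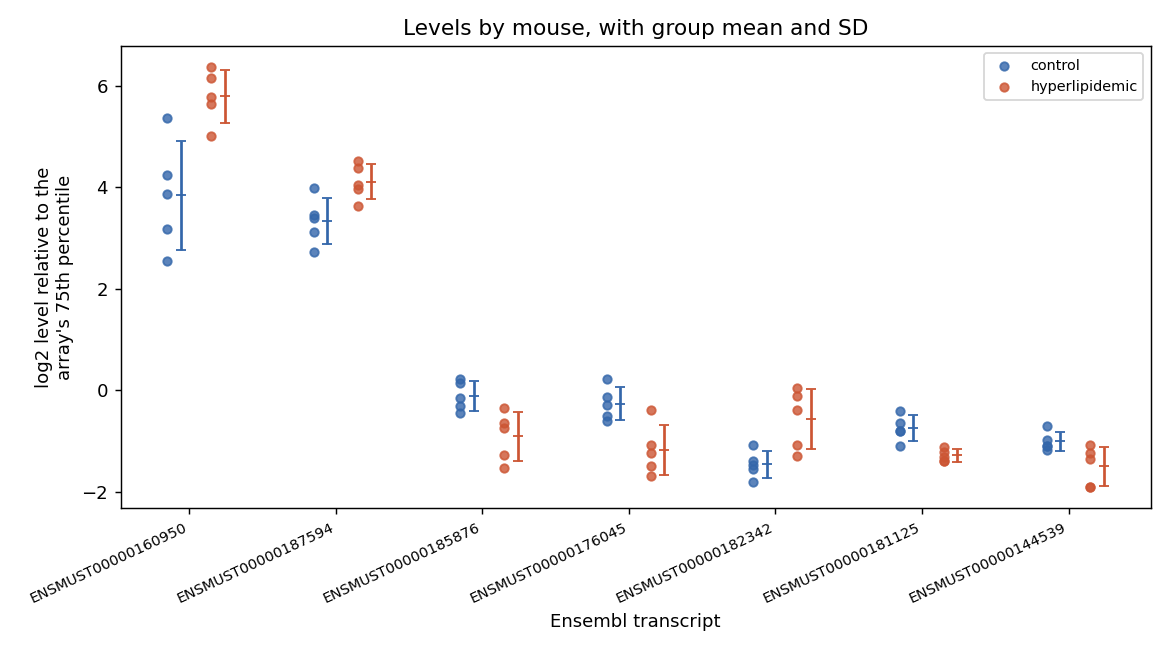
Points are the levels of 7 Ensembl-named transcripts in the 5 control (blue) and 5 hyperlipidemic (red) mice, in log2 units relative to the array's 75th percentile, and bars give the group mean and SD. ENSMUST00000160950 has the widest gap in means, from 3.84 to 5.79, with 1 control mouse inside the hyperlipidemic range, and the groups are apart only in ENSMUST00000181125, by a small margin.

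Another 2 transcripts had flagged spots on some arrays and were not tested for that reason, and so were left out of the order of brightness. With flagged spots kept, ENSMUST00000123757 stood at 6.37, 6.20, 6.54, 5.15 and 6.54 in control and 6.12, 6.27, 7.33, 7.63 and 7.15 in hyperlipidemic livers. Hyperlipidemic replicates 3 to 5 lay above all other mice, as in ENSMUST00000182342. Its difference was 0.74, with an adjusted p of 0.841 in limma's test. ENSMUST00000188920, kept in the same way, had means of 7.56 ± 0.29 in control and 7.54 ± 0.21 in hyperlipidemic mice (SD, n = 5 each).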

How the data were processed

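Per the file headers, the authors scanned the arrays with Agilent Feature Extraction 11.5.1.1, with probe annotation from mm9 (NCBI37). The scanner files hold the deposited intensity of each spot as a processed signal, with background measured beside it. The deposited value table of the authors is on the log2 scale, and its values differed from the levels used here by a constant per array; its column medians ran from -2.83 to -2.34, and the sources used here do not give its scaling. Per array there were 175906 non-control spots, 3 to 3945 of them with an outlier flag and 0 saturated. Precision is limited by the number of arrays.

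From these signals log2 levels were computed relative to each array's 75th percentile over all non-control spots, flagged spots were left out, and the 2 spots of a probe were averaged. RefSeq probes of 1 gene were represented by the brightest. The 5 control and 5 hyperlipidemic arrays were compared in limma 3.58.1 with lmFit and eBayes (R 4.3.3, Python 3.11.15) over 30244 features, with Benjamini-Hochberg adjustment at 0.05. Replicates were numbered in the order of deposit. The arrays are labelled as separate samples, and the labels do not state that each is another mouse. The p-values then rest on the spread between samples, which may be technical. On simulated data with known changes, the test of hyperlipidemic against control found 33 of 100 changes of 2-fold. It found 92 of 100 of 4-fold, with 5 false calls. The simulated features varied independently, with no effect shared by an array, slide or spike-in set. The real arrays hold shared variation, so these counts may not carry over to them.

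Transcripts named are those past the threshold (none), up to 4 per direction whose groups did not overlap, the 6 brightest tested, the 4 most and 4 least variable, and up to 4 per direction on 5 arrays of 1 group and at most 1 of the other. The 5 smallest unadjusted p-values, the 2 with flagged spots and the correlated sets were added after seeing the values. The rule for the members uses names alone, but it and the lists were set with earlier results of these data known. Alternatives covered scaling, background, filters, flags, slide, spike-in set, array weights and single arrays. Normexp used the median spot signal, since the files used here give no mean signal.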

Additional observations from a re-analysis of the deposited data

Results flagged for a closer look

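In ENSMUST00000185603, hyperlipidemic replicate 1 lay far from the other hyperlipidemic mice, at a level of 2.41 where the other 4 stood between 0.14 and 0.80. In ENSMUST00000192472, of the same set of 12, it stood at 2.48 where the other 4 lay between 0.37 and 0.79. Chance alone sets about 1 in 20 group values apart by this measure, which is 1.9 of the 38 group values of the named transcripts, and 2 were found. Over all 177 tested transcripts there were 13 such values of 354, where chance would give 17.7.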

How the results depend on the processing

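The labels name no pairs of control and hyperlipidemic samples, so no paired analysis was made. No member was called lower in any setting, and 1 was called higher, in place of 0, without control replicate 5 and within the spike-in set of both groups (0 to 1 when each array was left out). For all features the 13 higher and 8 lower calls became 0 and 3 with slide as a block, 0 and 2 on slide 2, 6 and 3 with spike-in sets as a block, 28 and 5 within that spike-in set, and 6 and 4 with the filter on all 10 arrays. Without control replicate 4 and hyperlipidemic replicate 4 there were 7 higher, and leaving out each array gave 8 to 18 higher and 6 to 8 lower. The members' median difference of -0.04 was -0.11 with the percentile over detected probes, -0.12 with that over unflagged spots and 0.13 with no filter, where all features had -0.04, -0.05 and 0.10, and -0.06 to 0.02 when each array was left out. The share on all 10 arrays was 15.3% when any spot sufficed, 24.1% with the mark for a positive and significant signal, and 12.95 to 13.6% when each array was left out. The cause was not tested. The percentile over unflagged spots and the spike-in set alone were added after seeing the data; the percentile over all spots was likewise settled on after both versions' counts were known, and the version over unflagged spots gave 10 higher and 8 lower.

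Of 485 differences of 19 named transcripts over 26 alternatives, 414 kept sign and call, 2 passed (both ENSMUST00000160950) and 69 changed sign, all in transcripts named for level or spread and none past the threshold. Slide as a block and the slide alone gave 2.71 for ENSMUST00000185603, -0.20 for ENSMUST00000186234, -0.14 for ENSMUST00000186570, -0.22 for ENSMUST00000189178, 2.49 for ENSMUST00000190543, 3.77 for ENSMUST00000190867, 3.22 for ENSMUST00000192472, 0.036 for ENSMUST00000193994 and -0.21 for ENSMUST00000194822. Both spike-in settings gave, in the same order without the last, 0.10, -0.10, -0.030, -0.055, 0.025, 0.81, 0.50 and 0.27. When each array was left out, the first 8 ran from -1.47 to 0.080, -0.032 to 0.069, -0.0057 to 0.10, -0.018 to 0.11, -1.29 to 0.25, -1.10 to 0.58, -1.26 to 0.31 and -0.12 to 0.077. Without control replicate 4 and hyperlipidemic replicate 4, ENSMUST00000185603 was 0.14, ENSMUST00000186570 -0.037, ENSMUST00000189178 -0.043, ENSMUST00000190543 0.20, ENSMUST00000190867 0.60 and ENSMUST00000192472 0.38. The percentile over detected probes gave -0.047, -0.029 and -0.026, and that over unflagged spots -0.062, -0.043 and -0.040, for ENSMUST00000186234, ENSMUST00000186570 and ENSMUST00000189178. Quantile normalization gave -0.0075 for ENSMUST00000186234 and -0.032 for ENSMUST00000189178, array weights gave -0.016 for the latter, and the deposited value table of the authors gave a difference of 0.0060 for ENSMUST00000193994.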
